A study of Mus musculus with 46 samples.

Results

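The genes described here separate the resident macrophages of the liver from monocytes that arrive through the blood. Of the 53465 gene entries of the count table, 10 were chosen by name: 5 genes of resident Kupffer cells (Clec4f, Vsig4, Timd4, Cd5l and Marco), 3 genes of recruited monocytes (Ly6c2, Ccr2 and Cd14) and 2 genes that macrophages of either origin express (Adgre1 and Cd68). They were followed mainly in liver, then in kidney, with cerebellum beside them. The libraries are messenger RNA of mice of strain C57BL/6 aged 23 days after birth. Every animal had the P195A allele of Adar. This gene encodes ADAR1, which converts adenosine to inosine in double-stranded RNA. The allele changes the domain of ADAR1 that binds Z-form nucleic acid, which only the interferon-inducible p150 isoform holds. In the p150-negative animals (P195A_p150neg) the other Adar allele made no p150, and in the p150-positive animals (P195A_p150pos) it did, so the comparison is between animals with and without an unchanged p150. Both groups carry P195A, and no wild-type animal is among them.

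From 16 animals, 8 of each genotype, 41 libraries were used. Livers numbered 7 in each genotype, kidneys 5 (p150-negative) and 7 (p150-positive), and cerebella 8 (p150-negative) and 7 (p150-positive). The other 5 labelled libraries were left out because genes of their labelled organ were at 0 to 0.827% of the median of that label, against 59.8% to 185% in those used. In units of 1000000 counts (M), the libraries held between 0.27 and 6.24 M, and the median library 2.95 M. The shallowest were the kidney of animal 3 (0.27 M), the liver of animal 16 (0.53 M) and the cerebellum of animal 11 (0.94 M), all p150-negative. Each library was 1 whole-organ sample of 1 animal, and whether blood was flushed from the organs is not given in the sources used here. In such bulk samples, more or fewer cells of a type and more or less RNA per cell cannot be told apart.

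Kupffer cells sit in the liver sinusoids, where they clear particles, bacteria and aged red cells from the blood. They arise before birth and renew themselves locally. When they are lost, or during inflammation, monocytes that carry Ly6C and the chemokine receptor CCR2 leave the bone marrow, enter the liver and can take on Kupffer cell genes over time. Clec4f is close to exclusive to Kupffer cells in the mouse, and Timd4 marks those that have been in the tissue longest.

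The stretches just upstream of the start sites of 3 members are shown because these genes marked the extremes of the liver results: Clec4f differed least between genotypes among the members, and Marco and Ly6c2 were among those that differed most. They are RefSeq promoter sequence of build GRCm38.p6, each on the minus strand, and none reaches into the transcript. Capitals mark GAGGAA, the core of the site bound by PU.1, the transcription factor of the macrophage lineage. The Marco stretch is chr1:120505025-120505274, that of Clec4f chr6:83656188-83656366 and that of Ly6c2 chr15:75111972-75112221.
Marco: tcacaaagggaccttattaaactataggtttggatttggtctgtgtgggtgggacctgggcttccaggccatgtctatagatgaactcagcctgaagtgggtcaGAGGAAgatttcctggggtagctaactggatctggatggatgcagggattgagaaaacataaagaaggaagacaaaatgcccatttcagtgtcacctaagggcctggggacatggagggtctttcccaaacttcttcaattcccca
Clec4f: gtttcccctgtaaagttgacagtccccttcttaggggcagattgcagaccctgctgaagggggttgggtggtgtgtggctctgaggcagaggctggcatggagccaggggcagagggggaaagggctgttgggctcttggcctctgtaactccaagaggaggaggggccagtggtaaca
Ly6c2: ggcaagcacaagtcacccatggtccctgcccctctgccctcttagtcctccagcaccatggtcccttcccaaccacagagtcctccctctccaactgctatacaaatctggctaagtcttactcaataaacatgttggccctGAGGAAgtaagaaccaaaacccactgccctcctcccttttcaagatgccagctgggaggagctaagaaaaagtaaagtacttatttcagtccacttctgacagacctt
On either strand of a window of 250 bases, GAGGAA was found in 5 of the 8 members present in the RefSeq promoter table (Vsig4, Cd5l, Marco, Ly6c2 and Cd68) and in 23.3% of all 32851 windows. The core of the ISRE, the element bound by interferon-activated factors (GAAA, any pair of bases, GAAA), was found in 0 of the 8 and in 2.98% of all windows. These are letter matches in short windows and say nothing of binding.

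In liver, p150-negative animals had more RNA of 9 of the 10 members than p150-positive animals. All 3 recruited genes were higher, Cd14 by 4.06, Ly6c2 by 3.63 and Ccr2 by 2.70 on the log2 scale. Among resident genes the differences ran from 0.61 for Clec4f, which did not pass the test, to 3.61 for Marco. Higher at an adjusted p under 0.05 (edgeR's quasi-likelihood test, Benjamini-Hochberg over all genes tested in the tissue) were 6.94% of the 9843 genes tested in liver. At an unadjusted p under 0.05 there were 10 of the 10 members, with Clec4f at p 0.0437 (edgeR), where 2292 of the 9843 genes passed in either direction. Ly6c2, Ccr2 and Cd14 reached the level of the low-count filter (3.91 CPM) in all 7 p150-negative livers but in 4, 0 and 3 of the 7 p150-positive ones, so they were tested through the group in which they were high. Of the 7 members that reached it in every liver, 6 were higher. The median log2 fold change of the members was 1.58, beside -0.04 over all genes tested. A fold change here is always p150-negative over p150-positive, and levels are counts per 1000000 (CPM) of the library total.

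**Figure D1:**
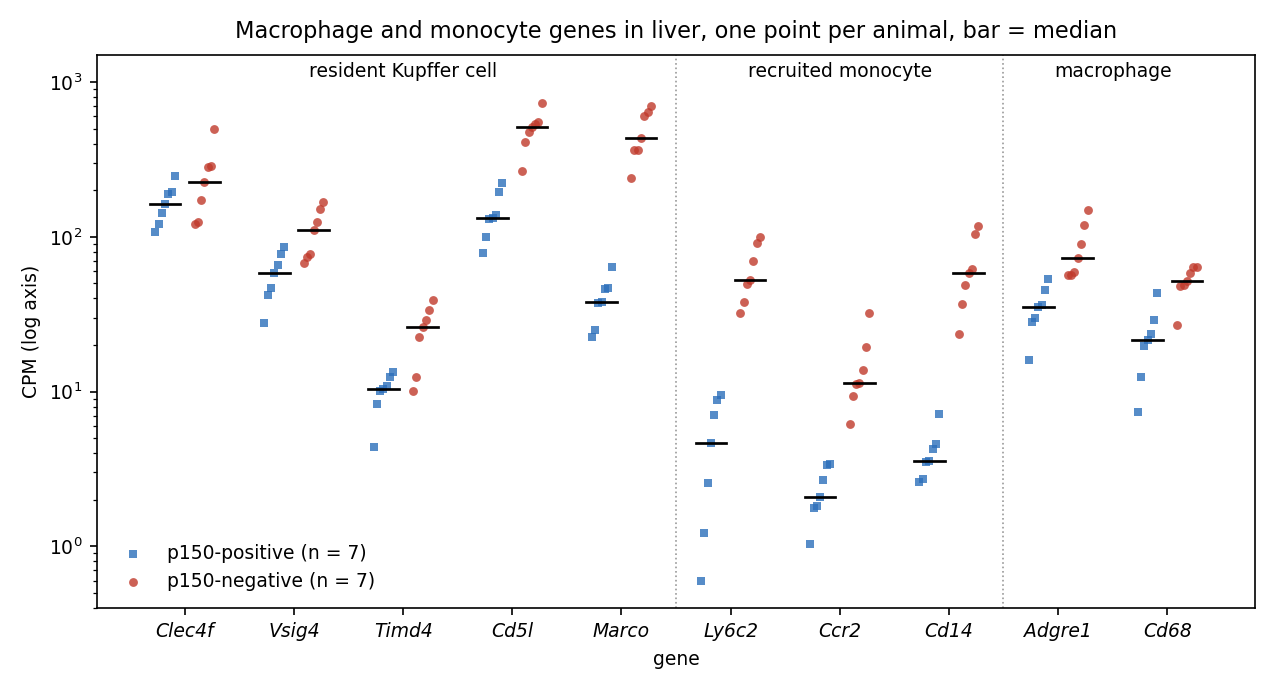
CPM of the 10 genes in each liver on a log axis, with 7 p150-positive livers as squares and 7 p150-negative livers as circles, and the median as a bar. The genotypes overlap for Clec4f, Vsig4, Timd4 and Cd68, and every p150-negative liver lies above every p150-positive liver for the other 6 genes.

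Clec4f, a C-type lectin of Kupffer cells that binds galactose-bearing glycans, stood at 122 to 500 CPM in p150-negative livers (median 226) and at 107 to 249 CPM in p150-positive livers (median 164). The groups overlapped, and 3 of 7 p150-negative livers lay above the highest p150-positive one. The log2 fold change was 0.61 ± 0.28 (SE; 95% interval 0.02 to 1.19) with an adjusted p of 0.197 (edgeR's quasi-likelihood test). Leaving out any single liver gave 0.38 to 0.74.

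Vsig4, the complement receptor CRIg that captures opsonised particles, ranged from 67.8 to 169 CPM (median 110) in p150-negative and from 27.7 to 85.7 CPM (median 58.8) in p150-positive livers. Every p150-negative liver was above the p150-positive median, though the ranges met. The log2 fold change was 0.99 ± 0.29 (SE; adjusted p 0.0279, edgeR). This call was the least secure of the 9: the adjusted p was 0.0802, 0.0671 and 0.0733 without the p150-negative livers of animals 1, 14 and 16, and 0.0531, 0.0616 and 0.0566 without the p150-positive livers of animals 4, 6 and 10.

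Timd4, the receptor TIM-4 that binds phosphatidylserine on dying cells, was read at 10.1 to 39.1 CPM (median 26.3) in p150-negative livers. In p150-positive livers it was at 4.41 to 13.4 CPM (median 10.4). Of the p150-negative livers, 5 of 7 were above all p150-positive ones, while those of animals 1 (10.1 CPM) and 9 (12.4 CPM) lay within their range. Timd4 rose by 1.31 ± 0.29 on the log2 scale (SE; edgeR adjusted p 0.00487).

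Cd5l, the secreted macrophage protein AIM, and Marco, a class A scavenger receptor for bacteria and particles, separated the genotypes fully. Cd5l stood at 268 to 729 CPM (median 516) against 78.5 to 223 CPM (median 133), a log2 difference of 1.84 ± 0.25 (SE; edgeR adjusted p 3.19e-05). Marco stood at 239 to 700 CPM (median 434) against 22.5 to 63.4 CPM (median 38.0). Its log2 fold change of 3.61 ± 0.27 (SE; adjusted p 7.04e-08, edgeR) was 5th of the 9843 genes when ranked by p. The lowest p150-negative value of both genes was in animal 9.

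Ly6c2, which encodes the Ly6C antigen that marks classical monocytes, was at 32.1 to 100 CPM (median 52.3) in p150-negative livers and at 0.594 to 9.57 CPM (median 4.63) in p150-positive livers. The groups did not overlap, and the log2 fold change was 3.63 ± 0.42 (SE; adjusted p 7.21e-06, edgeR). Ccr2, the receptor by which monocytes follow CCL2 out of the bone marrow, was at 6.17 to 32.2 CPM (median 11.3) against 1.03 to 3.39 CPM (median 2.09). It rose by 2.70 ± 0.37 (SE; adjusted p 4.68e-05, edgeR), from 5 to 94 counts per library in the p150-negative and 3 to 10 in the p150-positive group. Cd14, the co-receptor that hands lipopolysaccharide to TLR4 and is made by monocytes, neutrophils and other cells, was at 23.4 to 118 CPM (median 58.3) against 2.59 to 7.12 CPM (median 3.57). Its log2 fold change of 4.06 ± 0.38 (SE; adjusted p 8.3e-07, edgeR) was the largest among the members.

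Adgre1, the gene of the F4/80 antigen, stood at 56.6 to 149 CPM (median 73.3) in p150-negative and 16.0 to 53.2 CPM (median 35.1) in p150-positive livers. The groups did not overlap, and the log2 fold change was 1.33 ± 0.25 (SE; adjusted p 0.00108, edgeR). Cd68, a glycoprotein of macrophage lysosomes, was at 26.9 to 63.7 CPM (median 52.2) against 7.33 to 43.1 CPM (median 21.6), a rise of 1.23 ± 0.28 (SE; adjusted p 0.00487, edgeR). Only the p150-negative liver of animal 1 (26.9 CPM) fell inside the p150-positive range of Cd68. In all, 6 of the 10 members had every p150-negative liver above every p150-positive one (Cd5l, Marco, Ly6c2, Ccr2, Cd14 and Adgre1), which 2.45% of the 9843 genes tested did. Ly6c2, Ccr2 and Cd14 were tested through the group in which they were high, so this count is not read against that share. Cd5l, Marco and Adgre1 reached the level of the low-count filter in every liver.

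Over all 15 labelled livers, with the one that lacked liver genes included, 4 of the 10 members passed the test: Marco, Ly6c2, Ccr2 and Cd14. That library, of p150-negative animal 2, held kidney identity genes at 8280.9 CPM and liver identity genes at 9.1 CPM. The p150-negative kidneys used held kidney identity genes at 9060 to 20200 CPM. This fit thus placed a library with the RNA of another organ among the p150-negative livers. The log2 fold changes of the 5 lost calls were then 0.78 for Vsig4, 1.09 for Timd4, 1.64 for Cd5l, 1.12 for Adgre1 and 1.06 for Cd68, each in the same direction as without that library.

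**Figure D2:**
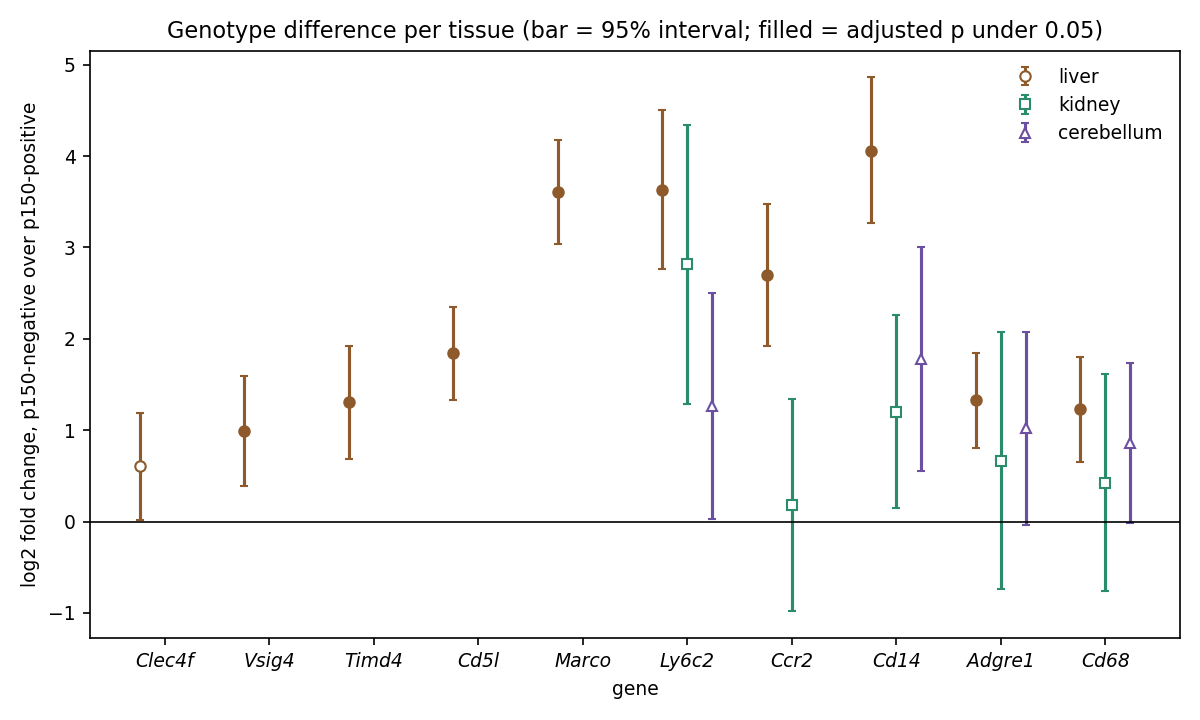
Log2 fold change of each member tested in liver (circles), kidney (squares) and cerebellum (triangles), with 95% intervals; filled symbols passed at an adjusted p under 0.05. In liver 9 of 10 members are filled, from 0.99 for Vsig4 to 4.06 for Cd14, and in the other tissues 0 are.

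The resident genes did not keep their proportions. The summed level of the 5 genes was 768 to 2130 CPM (median 1360) in p150-negative and 282 to 606 CPM (median 428) in p150-positive livers. Within that sum, Clec4f made up 18.0% ± 6.33 (SD, n = 7) in p150-negative and 40.1% ± 6.89 (SD, n = 7) in p150-positive livers. The ranges were 8.83% to 23.5% and 28.7% to 47.0%, so they did not meet. Marco made up 35.1% ± 7.04 (SD, n = 7) and 9.54% ± 2.58 (SD, n = 7), with ranges of 26.8% to 46.2% and 6.46% to 14.3%. The share of Cd5l was 36.8% ± 2.18 and 33.6% ± 5.80 (SD, n = 7 each), with ranges that overlapped. Among p150-negative livers, those of animals 8 and 11 had the lowest shares of Clec4f and the highest of Marco. These sums are not scaled for gene length and are read between genotypes only.

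**Figure D3:**
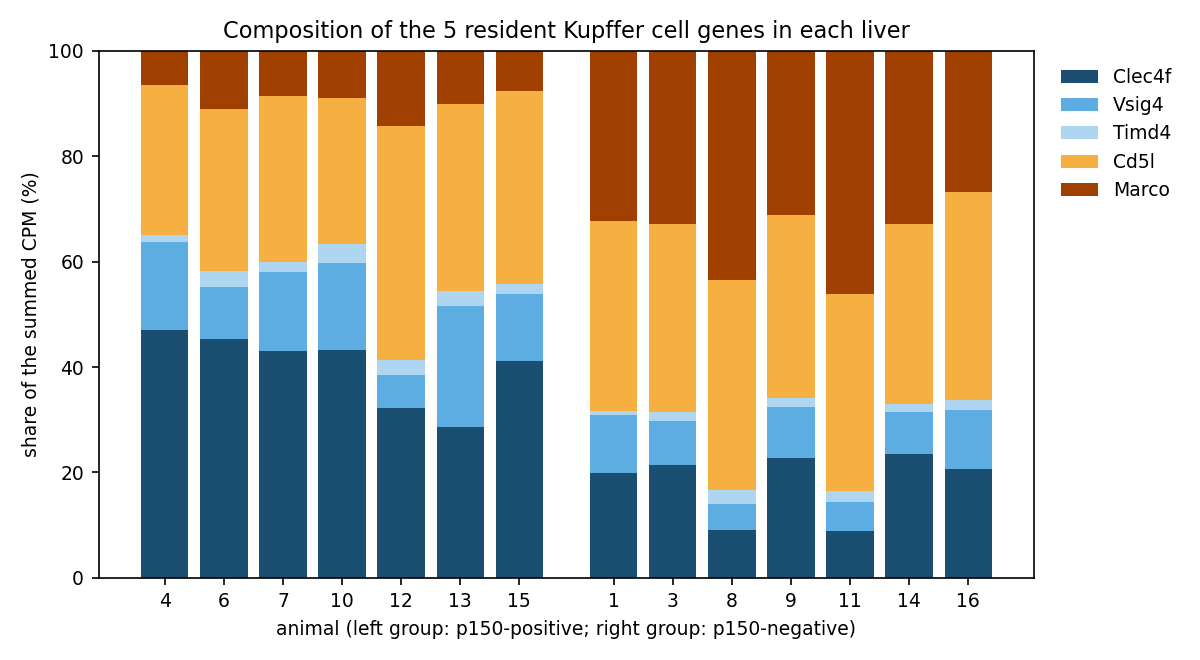
Share of each resident gene in the summed CPM of the 5, as 1 stacked bar per liver, with p150-positive animals on the left. Clec4f takes 28.7% to 47.0% of each bar on the left and 8.83% to 23.5% on the right, and Marco 6.46% to 14.3% and 26.8% to 46.2%.

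Per kilobase of exon, which allows genes to be compared with each other, the order of the resident genes also differed between genotypes. In p150-positive livers Cd5l (70.1 ± 24.8 CPM per kilobase, SD, n = 7) and Clec4f (67.6 ± 19.8) came first and did not differ beyond their spread. Vsig4 (38.9 ± 13.8) and Marco (20.7 ± 7.24) followed. In p150-negative livers Marco (248 ± 88.8) and Cd5l (244 ± 69.3) led and lay within each other's spread, above Clec4f (99.1 ± 52.9) and Vsig4 (74.7 ± 27.0). Ccr2 was last of the 10 members in both, at 2.18 ± 1.29 and 0.342 ± 0.129 CPM per kilobase.

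Set against Adgre1 in the same library, a ratio that does not depend on library scaling, Marco stood at 4.23 to 7.60 times the CPM of Adgre1 in p150-negative and at 0.5 to 1.75 times in p150-positive livers. Ly6c2 was at 0.420 to 0.949 against 0.0370 to 0.264 times. For Clec4f the ratio was 1.04 to 5.01 against 3.05 to 7.59, for Vsig4 0.566 to 2.09 against 0.764 to 2.89 and for Timd4 0.171 to 0.396 against 0.0979 to 0.630. Cd5l was at 4.59 to 8.31 against 2.20 to 5.40, Ccr2 at 0.0685 to 0.340 against 0.0286 to 0.119, Cd14 at 0.260 to 1.98 against 0.0714 to 0.222 and Cd68 at 0.427 to 0.858 against 0.209 to 0.969. Per unit of Adgre1, the genotypes thus lay apart for Marco, Ly6c2 and Cd14 and overlapped for the other 6 members. How many of all genes lie apart after division by Adgre1 was not computed, so this count is a description only.

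Recruited was set against resident RNA with Ly6c2 and Clec4f, the resident gene with the smallest genotype difference. The log2 ratio of their counts was -1.93 ± 0.71 (SD, n = 7) in p150-negative and -5.43 ± 1.31 (SD, n = 7) in p150-positive livers. All 7 p150-negative livers (-2.45 to -0.44) were above the highest p150-positive liver (-3.88). The difference was 3.50 (SE 0.56; exact two-sided permutation test, p = 0.000583, the smallest that the 3432 relabellings can give). The result depends on the resident gene taken. In pairs added after the data were seen, the difference was 3.0 (SE 0.57) for Vsig4, 2.72 (SE 0.58) for Timd4 and 2.13 (SE 0.39) for Cd5l in place of Clec4f, with all 7 p150-negative livers above the p150-positive ones. It was 0.38 (SE 0.47; exact two-sided permutation test, p = 0.415) for Marco, where the log2 ratio was -4.07 to -2.37 in p150-negative and -5.1 to -2.35 in p150-positive livers. Adjusted over the 5 pairs by Benjamini-Hochberg, the exact p was 0.000728 for each of the other 4 and 0.415 for Marco. All 5 pairs share the Ly6c2 values, and the pair with Clec4f was taken with earlier results of these data known. The differences largely restate the fold changes given above, so these p values are no further support. Summed over the genes of each kind, recruited genes stood at 67.4 to 229 CPM (median 130) in p150-negative and 5.78 to 19.3 CPM (median 11.6) in p150-positive livers. Their ratio to the resident sum was 0.0488 to 0.166 and 0.0135 to 0.0339.

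**Figure D4:**
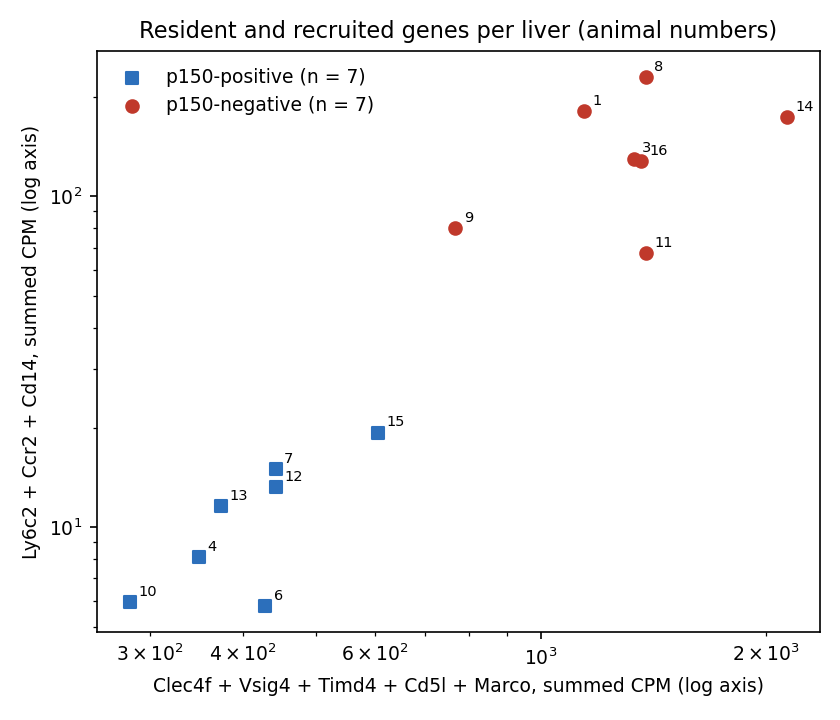
Summed CPM of the 3 recruited genes against that of the 5 resident genes in each liver, both on log axes, with animal numbers beside the points. The 7 p150-negative livers start at 67.4 CPM on the vertical axis and at 768 CPM on the horizontal one, while the p150-positive livers end at 19.3 and 606 CPM.

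Within a genotype, the members did not move as one block. Pearson correlations of log2 CPM over the 14 livers, after each genotype's mean was subtracted, were 0.85 for Cd5l and Marco, 0.81 for Cd5l and Ly6c2, 0.79 for Ccr2 and Cd14 and 0.74 for Timd4 and Marco. They were 0.63 for Clec4f and Vsig4, but 0.12 for Clec4f and Marco, 0.27 for Ly6c2 and Ccr2 and -0.04 for Clec4f and Timd4. All points share library depth and preparation, and the coefficients are descriptions. Among 9833 genes, those most like the mean of the resident members by the same measure were Rad51b (0.85), Cfp (0.84), Ctss (0.83), Fnbp1l, C1qc and Gngt2 (0.82 each). Cfp encodes properdin, Ctss cathepsin S and C1qc a chain of complement C1q. Those most like the recruited mean were Ncbp3 (0.90), Casp1 (0.84), Arhgap45 and Zfp445 (0.82 each), Matr3 and Rit1 (0.80 each). Each set is the highest of 9833 genes over 14 livers, and high coefficients from such a search were not tested. Between genotypes Cfp (log2 fold change 1.57), Ctss (1.61), C1qc (1.12) and Casp1 (1.42) were higher at an adjusted p under 0.05 (edgeR). The others did not pass, with Ncbp3 at 0 and Fnbp1l at -0.01.

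Other genes of the same cells were read from lists. Of 14 further Kupffer cell genes, 11 were tested in liver, 7 were higher and 0 lower, with a median of 1.24 on the log2 scale. Over all genes tested in liver 6.94% were higher. Genes low in p150-positive livers could pass the low-count filter through the p150-negative ones. The count for this list and for the lists that follow in liver is therefore a description only. Spic, the transcription factor of iron-recycling macrophages, rose by 2.83 ± 0.35 (SE; adjusted p 1.38e-05, edgeR), and Hmox1, heme oxygenase 1, by 2.83 ± 0.38 (3.51e-05). Axl and Clec1b rose by 1.24 ± 0.23 and 1.31 ± 0.26. The 4 tested genes that did not pass, named after their values were seen, included Nr1h3, the gene of the LXR alpha receptor that maintains Kupffer cell identity, at -0.22 ± 0.21 (SE). Id3, another factor of that identity, was at 0.23 ± 0.25, Fcna at 0.47 ± 0.26 and Mertk at 0.34 ± 0.30.

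Of 15 further monocyte genes, 6 passed the low-count filter and all 6 were higher, with a median of 2.78. Ms4a4c rose by 4.49 ± 0.44, Ms4a6c by 2.23 ± 0.35 and Plac8 by 2.01 ± 0.26 (SE, edgeR). Because a gene low in p150-positive livers could pass that filter through the p150-negative ones, this count is not read against the background. Of 20 genes of macrophages at large, all 20 were tested and 15 were higher (6.94% of all genes tested were), with a median of 1.40. Lysozyme gene Lyz2 rose by 2.05 ± 0.26, the NADPH oxidase subunit Cybb by 1.77 ± 0.24 and the Fc receptor genes Fcgr3 and Fcgr1 by 1.79 ± 0.25 and 1.91 ± 0.27. The 5 that did not pass, also named after the fact, were Aif1 (0.98 ± 0.36) and the class II antigen presentation genes Cd74 (0.36 ± 0.45), H2-Aa (0.66 ± 0.40), H2-Ab1 (0.36 ± 0.48) and H2-Eb1 (0.08 ± 0.43).

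Of 9 genes of lipid- and scar-associated macrophages, 6 were tested and 3 were higher: Lgals3, the gene of galectin-3, by 2.41 ± 0.31, Cd9 by 1.57 ± 0.31 and Lpl by 0.88 ± 0.24 (SE, edgeR). Of all genes tested 6.94% were higher. The other 3 tested did not pass, and the 6 ran from -0.07 to 2.41 on the log2 scale, with a median of 0.66. The remaining genes of this list, Trem2 and Gpnmb among them, are not reported here.

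Upstream and downstream of the members, the ligand of CCR2 and the partners of CD14 were looked up. Ccl2, the main CCR2 ligand, was the only one of 5 ligand genes above the low-count filter in liver and rose by 3.64 ± 0.68 (SE; adjusted p 0.00098, edgeR). The 5 ligands summed to 0.304 to 5.4 CPM in p150-positive and 7.6 to 88.4 CPM in p150-negative livers, so Ccl2 too was tested through the group in which it was high. Of 10 macrophage growth factors and receptors, 8 were tested and 4 were higher: Csf1 by 1.00 ± 0.30, its receptor Csf1r by 0.84 ± 0.22, and the GM-CSF receptor chains Csf2ra by 1.56 ± 0.39 and Csf2rb by 1.73 ± 0.29. Csf2, which encodes GM-CSF itself, had 0 counts in all 14 livers. Of 9 genes of the lipopolysaccharide receptor complex, 8 were tested and 3 were higher: Lbp, which delivers lipopolysaccharide to CD14, by 1.73 ± 0.22, and the adaptors Myd88 and Traf6 by 1.03 ± 0.21 and 1.03 ± 0.28. Tlr4, the receptor itself, was at 0.91 ± 0.37 (adjusted p 0.131). Of 8 scavenger receptors other than Marco, 7 were tested and 2 were higher, Cd36 by 2.53 ± 0.24 and Msr1 by 1.62 ± 0.22, while Scarb1 was at 0.63 ± 0.28 and Colec12 at -0.49 ± 0.25.

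Markers of some other cell types also differed between genotypes, and their relation to the members was not tested. Neutrophil markers, 9 of 13 tested and 9 higher (6.94% of all genes tested were), summed to 461 to 1700 CPM in p150-negative and 27.9 to 180 CPM in p150-positive livers. Markers low in p150-positive livers could pass the low-count filter through the p150-negative ones, so this count is not read against that share. Mmp8 (4.47 ± 0.55), Retnlg (4.36 ± 0.54), S100a8 (3.89 ± 0.51) and S100a9 (3.35 ± 0.46) led that list, and the defining marker Ly6g was below the low-count filter. Cd14 is also expressed by neutrophils, and the part of neutrophils in its rise was not tested. Markers of the sinusoidal endothelium, which lines the space Kupffer cells sit in, were not raised: of 10 tested, 0 were higher and Fcgr2b was lower (-0.72), and they summed to 248 to 349 CPM against 292 to 557 CPM. Of the stellate cell and fibroblast markers 0 of 8 were higher and Reln was lower (-1.48), and of the red cell precursor markers 0 of 6. Of the B cell, dendritic cell and T or NK cell markers, 2, 1 and 2 were tested and 0 were higher. The T and NK cell markers tested, Nkg7 and Gzma, were at 1.62 ± 0.53 and 1.21 ± 0.55 (SE; adjusted p 0.0521 and 0.183, edgeR), and that list summed to 14.8 to 58.3 CPM in p150-negative and 3.57 to 16.3 CPM in p150-positive livers. Liver identity genes summed to 34600 to 66100 CPM in p150-negative and 45900 to 66700 CPM in p150-positive livers, and 1 of the 4, Serpina1c, whose near-identical copies make its count uncertain, was lower (-1.26 ± 0.40; adjusted p 0.0431, edgeR).

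In kidney, 5 of the 10 members were tested and 0 passed at an adjusted p under 0.05 (edgeR), where 0.385% of 11957 genes were higher. At an unadjusted p under 0.05 there were 2 of the 5 (Ly6c2 and Cd14), and DESeq2 called 1, Ly6c2. Ly6c2 was at 0, 9.15, 24.9, 25.8 and 48.0 CPM in the 5 p150-negative kidneys and at 0.336 to 9.66 CPM (median 2.57) in the 7 p150-positive kidneys. The kidney at 0 was that of animal 3, whose depth allows a level of up to 11.1 CPM (3 counts), and 3 of the other 4 lay above every p150-positive kidney. The log2 fold change was 2.82 ± 0.72 (SE; 95% interval 1.29 to 4.34; adjusted p 0.102, edgeR), and without animal 3 it was 3.06 ± 0.62 with an adjusted p of 0.0208.

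Ly6c2 has a close neighbour, Ly6c1, which endothelial cells express, and 13.9% of the 50-base words of its transcripts also lie in Ly6c1. A share of reads that match both genes may have been dropped or split in counting. In kidney Ly6c1 was at 314 to 503 CPM in p150-negative and 324 to 707 CPM in p150-positive animals, a log2 difference of -0.19 ± 0.22 (SE; edgeR adjusted p 0.945). In liver Ly6c1 was at 1.03 to 4.06 and 0 to 1.67 CPM and below the filter. Of the members, 8 share no such word with any other gene.

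**Figure D5:**
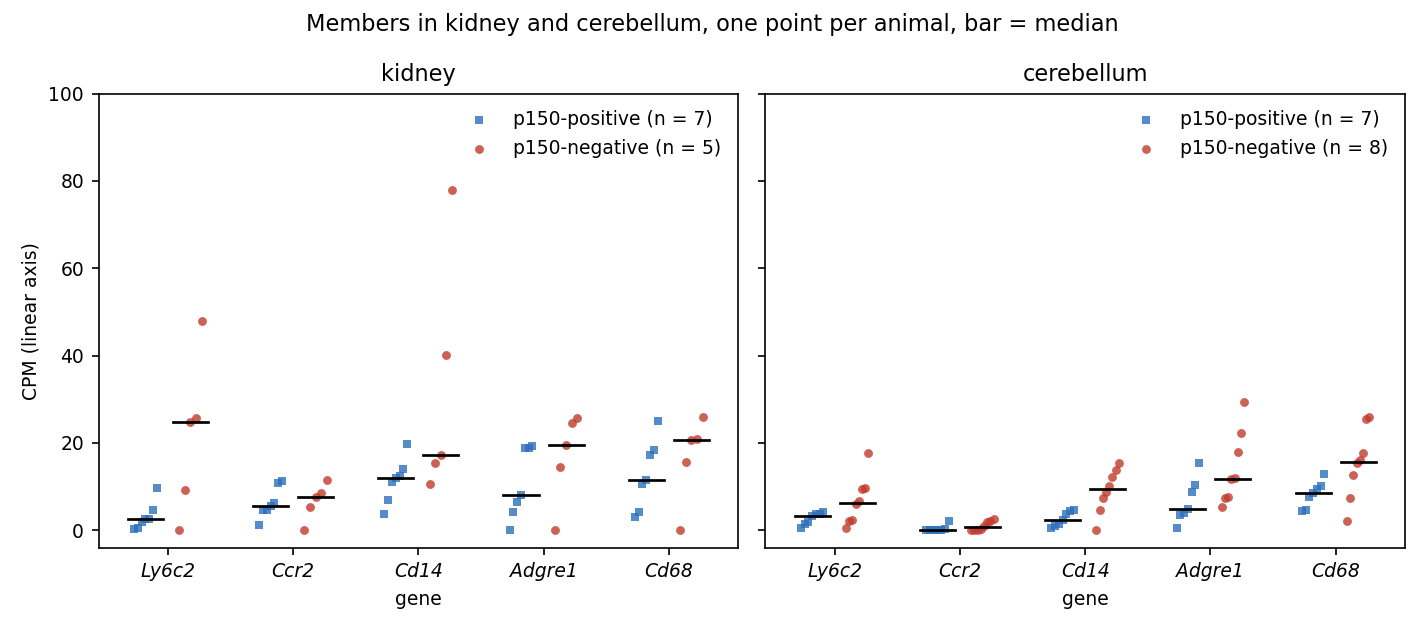
CPM of the recruited genes and of Adgre1 and Cd68 in kidney (left) and cerebellum (right) on a linear axis, 1 point per animal, with medians as bars. Ly6c2 reaches 48.0 CPM in p150-negative and 9.66 CPM in p150-positive kidneys, and the genotypes overlap for all 5 genes in both tissues.

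The other members differed less in kidney. Cd14 was at 10.7, 15.4, 17.2, 40.2 and 78.0 CPM in p150-negative and at 3.85 to 19.7 CPM (median 11.9) in p150-positive kidneys. Its highest value was 21 counts in the shallow library of animal 3, and its log2 fold change was 1.2 ± 0.50 (SE; adjusted p 0.478, edgeR), or 0.77 ± 0.42 (adjusted p 0.492) without that library. Ccr2 was at 0 to 11.6 and 1.29 to 11.4 CPM, with a log2 fold change of 0.18 ± 0.55 (adjusted p 0.986, edgeR) whose sign turned without p150-negative animal 8 (-0.05) or p150-positive animal 13 (-0.02). Adgre1 and Cd68 were at 0.66 ± 0.66 and 0.42 ± 0.56 (adjusted p 0.924 and 0.959, edgeR). Summed, the recruited genes stood at 33.2 to 78.0 CPM in p150-negative and 10.1 to 32.1 CPM in p150-positive kidneys. These ranges did not meet, though each gene alone overlapped. The sum of 78.0 CPM was that of animal 3 and came from Cd14 alone. The sum was not tested. All 5 resident genes were below the filter in kidney. The highest level was 8.47 CPM, of Clec4f in the p150-positive kidney of animal 5 (11 counts), and 9 of 12 kidneys had 0 counts of Clec4f.

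Related lists in kidney showed little beyond single genes. Of the further monocyte genes Plac8 was higher (1.48 ± 0.32; adjusted p 0.0386, edgeR), 1 of 6 tested, and of the macrophage genes at large 0 of 20. Of the neutrophil markers, S100a8 was higher (3.48 ± 0.64; adjusted p 0.0147), 1 of 4 tested. Their sum was 126 to 251 CPM in p150-negative and 10.7 to 85.5 CPM in p150-positive kidneys, and its part in the values of Ly6c2 and Cd14 was not tested.

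Whether the genotype difference itself differed between liver and kidney was tested by the interaction of genotype and tissue. Only Cd14 passed among the 10 members, where 1.5% of 12970 genes passed in either direction. Its difference was larger in liver by 2.94 ± 0.61 on the log2 scale (SE; 95% interval 1.70 to 4.18; adjusted p 0.00625, edgeR), and with the animal as a block by 3.22 ± 0.62 (adjusted p 0.016). For Ccr2 the value was 2.49 ± 0.67 (adjusted p 0.052), just outside the threshold. For Ly6c2 it was 0.76 ± 0.80 (95% interval -0.88 to 2.4; adjusted p 0.913), so a difference between the organs was not detectable at this precision. Adgre1 and Cd68 stood at 0.61 ± 0.61 and 0.76 ± 0.57. For the resident genes the kidney counts are at or near 0, and their interaction values of 0.92 to 3.23, with standard errors of 0.89 to 1.5, rest on few counts.

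In cerebellum, 4 members were tested and 0 passed (edgeR), where 0.723% of 13146 genes were higher. At an unadjusted p under 0.05 there were 2 of the 4, Ly6c2 and Cd14, and DESeq2 called 1, Cd14. Cd14, which microglia also express, was at 0 to 15.4 CPM (median 9.40) in the 8 p150-negative and 0.481 to 4.74 CPM (median 2.36) in the 7 p150-positive cerebella. The p150-negative cerebellum at 0 was that of animal 11, and 6 of 8 were above every p150-positive one. The log2 fold change was 1.78 ± 0.59 (SE; adjusted p 0.233, edgeR), and 1.95 ± 0.47 with an adjusted p of 0.0417 without animal 11. Ly6c2 was at 0.549 to 17.8 against 0.640 to 4.17 CPM (1.27 ± 0.59; adjusted p 0.509), Adgre1 at 1.02 ± 0.50 and Cd68 at 0.86 ± 0.42 (adjusted p 0.547 and 0.543). The recruited genes, Ccr2 included, summed to 9.53 to 25.1 CPM in p150-negative and 2.56 to 8.49 CPM in p150-positive cerebella. These ranges did not meet, and the sum was not tested. Clec4f had 0 counts in all 15 cerebella.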

How the data were processed

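Counts of reads per gene were analysed as the authors deposited them (46 columns, all matched to a sample; 0 unused). Per the submitters' processing notes, FastQC 0.11.3, SAMtools 1.2, STAR 2.4.2a, Picard 1.134 and HTSeq 0.4.1 were used on GRCm38 (mm10); annotation release, strand setting and handling of shared reads are not given in the sources used here. Per the labels' protocols, RNA was taken in TRIzol, purified with DNase treatment and made into Nextera XT libraries. Of 53471 rows, 6 repeated an identifier. Entries without a symbol held 0.267% of counts. At 1000000 counts, 1 count is 1 CPM.

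Genes were tested per tissue with edgeR 4.0.16 (TMM, filterByExpr with minimum count 10 and minimum total 15) in R 4.3.3, called at an adjusted p under 0.05 (Benjamini-Hochberg over all genes tested). Standard errors came from the quasi-likelihood F statistic. Exon lengths came from GENCODE M21, which holds 99.6% of identifiers, and promoters from RefSeq. Correlations used log2 CPM with a prior count of 2, and the ratio a prior of 0.5 count. DESeq2 1.42.0 and the other alternatives are described below. Scripts were tested on simulated data.

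The members, 23 lists (180 genes) and tests were chosen with earlier results of these data known. Named are all members, Ly6c1, up to 4 genes per list with the smallest adjusted p, the untested Csf2 and Ly6g, and the 6 genes most like each set. Genes named outside this rule, chosen after their values were seen, are marked as such where they appear; some genes that met this rule are not reported here. The labels give libraries of 1 animal in several organs the same number, so liver and kidney pair by animal; same-animal deviations correlated from -0.014 to 0.25 over 11 animals.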

Additional observations from a re-analysis of the deposited data

Results flagged for a closer look

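The Cd68 level of the p150-negative liver of animal 1 was 26.9 CPM, apart from the other 6 livers of its group at 48.0 to 63.7 CPM. The gap to the nearest took up 0.573 of the group's range. It was the only such sample among 38 groups examined, and chance alone marks about 1 in 20. Without that liver the log2 fold change of Cd68 in liver was 1.3, against 1.23 with it.

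The genotype difference of Cd14 was larger in liver than in kidney by 2.94 on the log2 scale, by the interaction test given above.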

How the results depend on the processing

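In liver, 9 members passed. With 1 liver left out in turn 8 to 9 did, over all labelled libraries 4, and in 1 fit of all tissues 5, where Vsig4 (adjusted p 0.104), Timd4 (0.201), Adgre1 (0.0527) and Cd68 (0.0533) missed; the cause was not tested. Marco, Ly6c2, Ccr2, Cd14 kept their calls in every alternative run. Without the liver under 1 M counts Vsig4 was at 0.84 (adjusted p 0.0733). In kidney, 0 members passed, and 0 to 1 with 1 library left out. It was 1, Ly6c2, under DESeq2 (adjusted p 0.00965), without the expression filter (0.0402), without libraries under 1 M counts (0.0208) and in 1 fit of all tissues (0.00697). Ccr2 in kidney changed sign over all labelled libraries (-0.11), with the identifier letters as a block (-0.04), and without p150-negative animal 8 (-0.05) or p150-positive animal 13 (-0.02), and ran from -0.05 to 0.39 with 1 library left out. In cerebellum, 0 passed, and 0 to 1 with 1 library left out. It was 1, Cd14, under DESeq2 (adjusted p 0.0498) and without libraries under 1 M counts (0.0417), and 2 in 1 fit of all tissues (Cd14, 0.0356, and Marco, 0.0222). Marco was below the filter in the cerebellum fit itself. Only 1 of 15 cerebella, that of p150-negative animal 8, had over 3 counts of Marco (44). For liver against kidney, 1 passed, and 2 with RLE size factors and without libraries under 1 M counts, where Ccr2 was added (0.0485 and 0.0476). With the animal as a replicate block (22 libraries of 11 animals) 1 member passed, Cd14, and the pairing changed no call of a member. Over all labelled libraries the liver-minus-kidney values of Vsig4 (-1.11) and Timd4 (-0.37) turned negative. The Ly6c2 to Clec4f ratio differed by 3.22 to 3.76 with 1 liver left out, by 3.24 with a prior count of 2 by 4.14 over all labelled livers, and by 0.38 with Marco in place of Clec4f. Of the remaining settings (a filter at 1 CPM in every library of 1 genotype, Xist level as a covariate) none moved a count of members called by over 1.5 times. That filter tested 10726 genes in liver, more than the 9843 of the main fit, so it was not stricter there. Depth limits kidney most: in animal 3 a count of 0 allows up to 11.1 CPM, which covers counting error only.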

Other observations

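In cerebellum, where 0 of 4 members tested passed, some other macrophage genes did. Of 20 genes of macrophages at large, 19 were tested there, 5 were higher in p150-negative animals (0.723% of all genes tested were) and 14 did not pass, with log2 fold changes down to -2.03. The 5, named after their values were seen, were the cathepsin gene Ctss, higher by 1.76 ± 0.27, the complement C1q chains C1qa, C1qb and C1qc by 1.24 ± 0.21, 1.08 ± 0.20 and 1.24 ± 0.24, and the Fc receptor chain Fcer1g by 1.59 ± 0.35 (SE; adjusted p 0.000974 to 0.0291, edgeR). Microglia markers summed to 106 to 291 CPM in p150-negative and 104 to 206 CPM in p150-positive cerebella, and 0 of the 5 tested passed. Ccl12, a CCR2 ligand of the mouse also named after its values were seen, rose by 4.08 ± 0.72 (adjusted p 0.00457).

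The p150-negative cerebellum of animal 8 held 72 counts of Cd5l (14.0 CPM) and 44 counts of Marco (8.55 CPM), with 0 of Clec4f. In the other 14 cerebella Marco was at 0.785 CPM or less and Cd5l at 2.13 CPM or less. Liver identity genes in that library stood at 0.139% of their level in the liver of the same animal, a share that would bring 0.766 CPM of Cd5l and 0.839 CPM of Marco. The source of these counts was not tested.

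The p150-positive kidney of animal 10, named after its values were seen, held liver identity genes at 0.934% of the level in its own liver. That share would bring 1.14 CPM of Clec4f and 0.434 CPM of Vsig4, beside 1.71 and 0.428 CPM read (4 counts and 1 count). It would bring 0.0944 CPM of Timd4, 0.733 CPM of Cd5l and 0.234 CPM of Marco, beside 2.57, 3.42 and 1.28 CPM read (6, 8 and 3 counts). In the p150-positive kidney of animal 7 the share was 0.0622%, which would bring 0.0865 CPM of Cd5l, beside 7.04 CPM read (15 counts). Whether liver RNA is the source of any of these counts was not tested.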
